A study of Homo sapiens with 3 samples.

Results

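The genes described here encode subunits of respiratory complex I, the NADH:ubiquinone oxidoreductase of the inner mitochondrial membrane. They were taken by symbol, as every gene named NDUFA, NDUFB, NDUFC, NDUFS or NDUFV followed by a number, plus NDUFAB1. The rule took 38 of the 25270 gene symbols in each library and left out the NDUFAF assembly factors, which are given separately. The rule reads symbols only, though it was set with earlier results of these data known. All 38 were among the 12210 genes kept, those with a mean level of at least 1 FPKM (fragments per kilobase of transcript, scaled to library size) over the libraries.

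Complex I takes electrons from NADH at the tip of its matrix arm, passes them along a chain of iron-sulfur clusters to ubiquinone, and pumps protons through its membrane arm. It is the point where most electrons enter the respiratory chain, and the biguanide metformin, a drug given for diabetes, is widely described as an inhibitor of it. A conserved core carries out catalysis, part of it encoded in the nucleus and the membrane-bound part in mitochondrial DNA, and a shell of supernumerary subunits is needed for assembly and stability.

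RNA-seq was made from 3 libraries labelled HepG2, a human hepatocellular carcinoma cell line, with 1 library per condition (n = 1), so no difference has a replicate check and no test or p-value is given. The first library was from parental HepG2 cells without treatment. The second was from HepG2/metR cells, HepG2 cells kept in metformin for over 5 months, and the third was from the same line after 24 h in 40 mM oxamate, which inhibits lactate dehydrogenase. All were grown in the same serum-containing medium, and the labels do not say whether HepG2/metR is a clone or a pool. HepG2/metR against parental cells asks what long metformin exposure goes with, and oxamate-treated against untreated HepG2/metR asks what blocking lactate production goes with. Both comparisons use the same HepG2/metR library, so its own error enters both, with opposite sign.

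The liver label was checked against 10 hepatocyte markers (ALB, APOA1, APOA2, APOB, TTR, SERPINA1, FGB, TF, AFP and HNF4A). In the parental library they ranged from 68.7 to 11975.5 FPKM, and in HepG2/metR 9 of the 10 were under 1.5 FPKM and APOA1 and TTR were listed at 0. The markers were at least 2-fold lower in 10 of 10 cases, and with oxamate their median log2 change was 0.01. SERPINA1 remained detected, at 1708.5, 11.2 and 7.10 FPKM in the parental, HepG2/metR and oxamate libraries. The HepG2/metR and oxamate libraries therefore lack most of the liver markers that their labels imply, and the part of this loss in the differences below was not tested. LDHB, a lactate dehydrogenase subunit named after its values were seen, was at 0.298, 983 and 712 FPKM, and the 6 genes kept on chromosome Y were all at least 1.5-fold lower in HepG2/metR, with a median log2 change of -4.42. Whether HepG2/metR derives from the parental line as labelled was not tested, so a difference between lines and the metformin exposure cannot be told apart in any HepG2/metR minus parental value below. In bulk RNA, fewer cells that express a gene and less of its RNA per cell cannot be told apart. The first comparison was wide across the transcriptome as a whole. The median absolute log2 change of all genes kept was 0.65 for HepG2/metR against parental cells and 0.21 for oxamate-treated against untreated HepG2/metR. The number of reads is unknown, but the smallest values put the relative depth of the HepG2/metR and oxamate libraries at 1.21 and 1.24 times that of the parental library.

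Transcripts of complex I were abundant in every library. The member levels ran from 12.3 to 501 FPKM in parental cells with a median of 98.2, from 9.49 to 628 FPKM in HepG2/metR with a median of 84.9, and from 8.85 to 548 FPKM after oxamate with a median of 80.2. Among all genes kept, the median member stood at percentile 93, 92.2 and 93.1 in the parental, HepG2/metR and oxamate libraries. Summed over the 38 genes, the level was 5549.9, 5185 and 4449 FPKM in the parental, HepG2/metR and oxamate libraries. These sums were 0.987%, 0.970% and 0.939% of the FPKM total of their library. Without NDUFAB1 the sums were 5099.7, 5130.0 and 4392 FPKM, so the sum was lower in HepG2/metR than in parental cells only with NDUFAB1 counted.

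Of the 38 members, 7 had the same rank by level in parental and HepG2/metR cells and 22 lay within 3 places, against 11 and 35 between untreated and oxamate-treated HepG2/metR. Pearson's r of the log2 levels over the 38 genes, a description since genes are no replicates, was 0.818 for parental against HepG2/metR cells and 0.984 for untreated against oxamate-treated HepG2/metR. Without NDUFAB1 the first value was 0.896 over 37 genes. The 3 genes with the highest mean level were NDUFA1, NDUFS5 and NDUFB9. NDUFA1, a small membrane-arm subunit encoded on the X chromosome, was the highest in each library at 501, 628 and 548 FPKM, in the order parental, HepG2/metR and oxamate, which is the order of every set of 3 values below. NDUFS5, on the intermembrane-space face of the membrane arm, was at 436, 433 and 333 FPKM. NDUFB9, a membrane-arm subunit of the LYR family that binds acyl carrier protein, was at 363, 315 and 286 FPKM. At the low end, NDUFA5 was the lowest in each library at 12.3, 9.49 and 8.85 FPKM, NDUFA10 was at 28.9, 17.5 and 17.7 FPKM and NDUFV3 was at 29.8, 32.5 and 24.8 FPKM. The longest coding transcript of a member had a median length of 1256.5 bases against 3418 bases for all genes kept. Among the members the longer ones were the lower ones, with a Spearman's rho between length and parental level of -0.63 (n = 38 genes, length being also the divisor in FPKM).

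The promoters of 3 members are shown, NDUFAB1 and NDUFS7, which were lower in HepG2/metR, and NDUFA3, which was higher there, because they differ in the motif letters they hold. RefSeq promoters of 300 bases, from 250 before to 50 after the transcription start (build GRCh38.p14), were given for 33 of the 38 members. Capitals mark the letters of a motif searched on both strands, and the 3 genes were chosen after the values were seen. NDUFAB1 (chr16:23596267-23596566, minus strand) had no match, NDUFA3 (chr19:54102605-54102904, plus strand) had the YY1 letters, and NDUFS7 (chr19:1383657-1383956, plus strand) had the NRF1 and the YY1 letters:
NDUFAB1: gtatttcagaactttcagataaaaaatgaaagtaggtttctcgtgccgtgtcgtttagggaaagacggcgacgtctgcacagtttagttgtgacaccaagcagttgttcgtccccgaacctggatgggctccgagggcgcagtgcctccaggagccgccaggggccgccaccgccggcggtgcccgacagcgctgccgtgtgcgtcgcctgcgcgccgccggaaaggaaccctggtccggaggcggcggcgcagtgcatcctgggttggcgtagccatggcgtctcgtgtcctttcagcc
NDUFA3: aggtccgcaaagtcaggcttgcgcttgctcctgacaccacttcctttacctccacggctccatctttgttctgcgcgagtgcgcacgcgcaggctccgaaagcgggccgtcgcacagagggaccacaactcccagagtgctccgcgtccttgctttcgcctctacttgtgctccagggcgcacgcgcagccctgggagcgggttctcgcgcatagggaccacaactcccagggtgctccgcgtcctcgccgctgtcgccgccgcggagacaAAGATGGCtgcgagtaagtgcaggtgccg
NDUFS7: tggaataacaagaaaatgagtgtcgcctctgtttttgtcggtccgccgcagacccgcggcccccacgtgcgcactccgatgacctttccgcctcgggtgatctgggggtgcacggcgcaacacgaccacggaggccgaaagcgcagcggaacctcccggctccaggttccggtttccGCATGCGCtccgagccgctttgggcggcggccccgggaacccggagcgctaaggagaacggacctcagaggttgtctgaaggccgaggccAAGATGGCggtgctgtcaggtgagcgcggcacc

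The NRF1 letters GCATGCGC occurred in 6 of the 33 promoters, or 18.2%, against 6.71% of the 9525 protein-coding genes kept with a promoter. These were those of NDUFA5, NDUFA6, NDUFA8, NDUFB4, NDUFS6 and NDUFS7. The YY1 letters AAGATGGC occurred in 7 (21.2% against 6.83%), those of NDUFA3, NDUFA6, NDUFA7, NDUFA9, NDUFB8, NDUFS4 and NDUFS7. In each of these 7 the match read forward and lay wholly after the start, its first base between 10 and 25 bases past it. A forward match anywhere in the stretch after the start was found in 3.9% of all the genes. The ETS letters CCGGAAGT occurred in 2 (6.06% against 10.7%), NDUFA13 and NDUFS1, and the ESRRA letters TCAAGGTCA in 0 (against 0.241%). A match is a run of letters and not a measured binding site. The YY1 letters contain ATG, and whether these matches cover a start codon was not examined.

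Between HepG2/metR and parental cells, the median log2 change of the members on the log2(FPKM + 1) scale was -0.21, against 0.02 for all genes kept. In all, 22 of the 38 members were lower in HepG2/metR and 16 were higher, and with scaling by the upper quartile or by the library total 20 were lower and 18 higher. At the 2-fold threshold, 2 members were higher (NDUFA3 and NDUFA12), where 16.6% of all genes kept were higher, and 4 were lower (NDUFAB1, NDUFV2, NDUFS7 and NDUFC2), where 17.6% of all genes kept were lower. At the 1.5-fold threshold, 3 members were higher (background 26.7%) and 9 were lower (background 27.0%), and 26 stayed within 1.5-fold. The shares of members, 5.26% and 10.53% at 2-fold, were thus both under the shares of all genes. The members' median absolute log2 change was 0.41 against 0.65 for all genes kept and 0.55 for the 1638 genes with a mean of at least 50 FPKM, a set chosen after the values were seen because 32 of the 38 members belong to it. Of that set 20.3% were at least 1.5-fold lower and 27.2% higher, beside 23.7% and 7.89% of the members. The median log2 change of the set was 0.13.

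**Figure D1:**
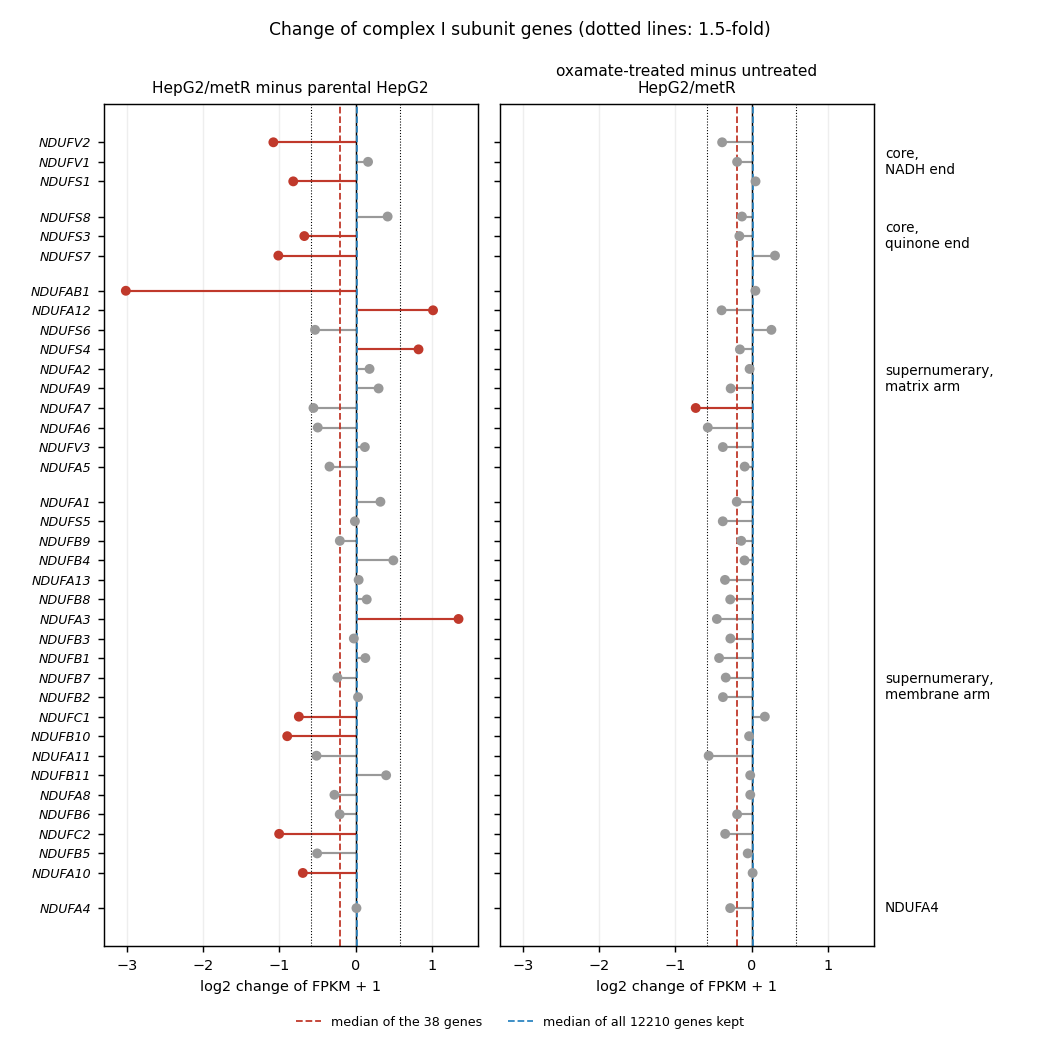
Log2 change of FPKM + 1 of 37 of the 38 members in HepG2/metR minus parental HepG2 (left) and oxamate-treated minus untreated HepG2/metR (right), with red marks past 1.5-fold (dotted lines) and dashed lines at the median of the 38 members and of all 12210 genes kept. On the left 3 members lie past 1.5-fold on the higher side and 9 on the lower side, and on the right NDUFA7 alone passes, at -0.73, and with scaling to the same library total it no longer does.

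The core subunits at the NADH-binding end differed among themselves. NDUFV1, which binds NADH and the flavin that first takes up its electrons, was at 67.7, 76.0 and 66.4 FPKM, with log2 changes of 0.16 in HepG2/metR and -0.19 with oxamate. NDUFV2, which carries an iron-sulfur cluster beside the flavin, was at 252, 119 and 90.7 FPKM, and its log2 change in HepG2/metR was -1.08, or 2.12-fold lower. NDUFS1, the large subunit that holds the next clusters of the chain, was at 63.0, 35.3 and 36.6 FPKM, with a log2 change in HepG2/metR of -0.82. So the flavin-binding subunit was about level between these libraries while the other core subunits at this end were lower in HepG2/metR. NDUFV2 stood at 3.72 times the FPKM of NDUFV1 in parental cells, 1.56 times in HepG2/metR and 1.36 times after oxamate.

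The core subunits at the quinone-binding end differed in direction too. NDUFS7, which carries the last cluster before ubiquinone, was at 60.1, 29.3 and 36.4 FPKM, and was 2.05-fold lower in HepG2/metR (log2 change -1.01). NDUFS3, which lies in the quinone module of the matrix arm, was at 85.2, 53.1 and 47.4 FPKM (log2 change -0.67). NDUFS8, which carries a pair of iron-sulfur clusters, went the other way at 73.0, 98.0 and 89.7 FPKM, a log2 change of 0.42 that was within 1.5-fold. Over the 7 nuclear-encoded core subunits the median log2 change in HepG2/metR was -0.67, with 4 at least 1.5-fold lower and 0 higher (27.0% and 26.7% of all genes kept). The 30 supernumerary subunits had a median of -0.12, with 5 at least 1.5-fold lower and 3 higher, both under those shares of all genes. No test sets these groups apart, and the medians of the core subunits stayed below those of the supernumerary ones under each scaling tried, at -0.53 for the core with upper-quartile scaling, where the matrix-arm and membrane-arm groups had medians of 0.03. The 7 mitochondrially encoded core subunits were not analysed here.

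Of the 10 supernumerary subunits of the matrix arm, NDUFAB1 had the widest difference of any member. It encodes the mitochondrial acyl carrier protein, which is both a subunit of complex I and the carrier on which mitochondria build fatty acids for lipoic acid. Its 3 levels were 450.2, 54.9 and 56.8 FPKM, which is 8.21-fold lower in HepG2/metR (log2 change -3.01). Its log2 change with oxamate was 0.05. Its rank among the 38 was 2 in parental cells, 28 in HepG2/metR and 25 after oxamate. Relative to the median of the other members it stood at 4.70 times in parental cells, 0.629 times in HepG2/metR and 0.660 times after oxamate.

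The other matrix-arm subunits past 1.5-fold in HepG2/metR were both higher there. NDUFA12, a late addition to the NADH-binding end, was at 122, 247 and 188 FPKM, or 2.03-fold higher in HepG2/metR (log2 change 1.02). NDUFS4, a small subunit whose loss causes Leigh syndrome, was at 107, 189.7 and 170.5 FPKM, with a log2 change of 0.83. Both were lower with oxamate, by log2 changes of -0.39 and -0.15, and remained above the parental level. NDUFS4 was instead higher with oxamate after scaling to the same FPKM total. NDUFS6, which joins the same end of the arm, was lower in HepG2/metR and part of the way back after oxamate, at 221, 153 and 183 FPKM. NDUFA2 and NDUFA9 stood slightly higher in HepG2/metR, NDUFA2 at 101, 114 and 112 FPKM and NDUFA9, which lies near the quinone pocket, at 58.6, 72.5 and 59.7 FPKM. NDUFV3 had a log2 change of 0.12 and NDUFA5 of -0.34 in HepG2/metR. NDUFA7 and NDUFA6 descended through the 3 libraries. NDUFA7 was at 77.9, 52.8 and 31.4 FPKM, and NDUFA6, the LYR-family protein that holds acyl carrier protein on the matrix arm, was at 67.9, 47.8 and 31.8 FPKM.

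In the membrane arm, NDUFA3 was the member with the largest positive change. This small transmembrane subunit was at 95.9, 246 and 179 FPKM, or 2.57-fold higher in HepG2/metR (log2 change 1.35), and it was lower again with oxamate by a log2 change of -0.46. Among the 7 members with the YY1 letters shown above, log2 changes in HepG2/metR ran from -1.01 for NDUFS7 to 1.35 for NDUFA3, and among the 20 with a promoter and no letters of the motifs searched they ran from -3.01 for NDUFAB1 to 1.02 for NDUFA12, with a median of -0.006. Of the 20 membrane-arm subunits, 4 stood at least 1.5-fold lower in HepG2/metR, a smaller share than the 27.0% of all genes kept. NDUFC2 was at 94.5, 46.7 and 36.5 FPKM (log2 change -1.0) and NDUFC1 at 131, 77.6 and 87.7 FPKM (log2 change -0.74). NDUFB10, an intermembrane-space subunit with conserved cysteines, was at 138, 73.7 and 72.0 FPKM (log2 change -0.90). NDUFA10, which resembles nucleoside kinases, had the low values given above and a log2 change of -0.69. Exons of NDUFC2 are shared with the read-through gene NDUFC2-KCTD14, at 19.8, 18.5 and 12.5 FPKM. The sum of the pair was 114, 65.1 and 49.0 FPKM, with a log2 change in HepG2/metR of -0.80, so NDUFC2 passed 2-fold only when read alone.

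The other 15 membrane-arm subunits stayed within 1.5-fold in HepG2/metR on the deposited scale, and NDUFB4 passed it with upper-quartile scaling. NDUFB4 and NDUFB11 were the highest of them in change, NDUFB4 at 257, 363 and 340.5 FPKM (log2 change 0.49) and NDUFB11, like NDUFA1 encoded on the X chromosome, at 65.8, 87.2 and 86.1 FPKM (log2 change 0.40). NDUFA1 itself had a log2 change of 0.33. Near 0 lay NDUFB8 at 0.15, NDUFB1 at 0.13, NDUFA13 at 0.04, NDUFB2 at 0.03, NDUFS5 at -0.01 and NDUFB3 at -0.02. NDUFA13, also known as GRIM-19, was among the abundant ones at 289, 297 and 233 FPKM, and NDUFB8, a common antibody target for assembled complex I, was at 178, 197 and 162 FPKM. The lower part of this group held NDUFB9 at -0.21, NDUFB6 at -0.21, NDUFB7 at -0.24, NDUFA8 at -0.28, NDUFB5 at -0.50 and NDUFA11 at -0.51 on the log2 scale. In level these genes spread widely: NDUFB3 was at 183, 179.7 and 148 FPKM, NDUFB1 at 154, 169 and 125 FPKM and NDUFB7 at 146, 124 and 97.5 FPKM. NDUFB2 was at 130.3, 133 and 102 FPKM, NDUFA8 at 85.9, 70.7 and 69.8 FPKM, NDUFB6 at 74.8, 64.6 and 56.5 FPKM and NDUFB5 at 72.8, 51.1 and 49.2 FPKM, each lowest after oxamate on the deposited scale. With scaling to the total without small RNAs, NDUFA8, NDUFB6 and NDUFB5 were higher with oxamate than without. NDUFA11, which lies where complex I meets complex III in supercomplexes, was at 118, 82.6 and 55.6 FPKM. NDUFA4, named for complex I but since found to be a subunit of cytochrome c oxidase, was at 89.9, 90.6 and 74.4 FPKM, with log2 changes of 0.01 and -0.28. Its paralog C15orf48 was at 0.133, 8.19 and 4.95 FPKM, and NDUFA4L2 did not exceed 0.5 FPKM in any library.

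With oxamate, the members' median log2 change was -0.19 against 0.02 for all genes kept. At 1.5-fold, 0 members were higher (background 4.3%) and 1 was lower (background 3.82%). That 1 was NDUFA7, with a log2 change of -0.73, and next in order were NDUFA6 at -0.57, NDUFA11 at -0.56, NDUFA3 at -0.46 and NDUFB1 at -0.43. The largest positive values were 0.31 for NDUFS7, 0.26 for NDUFS6, 0.17 for NDUFC1, 0.05 for NDUFS1 and 0.05 for NDUFAB1. Of the 38 members, 32 were lower with oxamate on the deposited scale, 20 after scaling to the same FPKM total and 18 after scaling to the total without small RNAs, so a direction for the group depends on the scaling. These scalings moved the median of all genes from 0.02 to 0.17 and 0.19. Less the median of all genes, the members' median was -0.21 as deposited and -0.19 and -0.18 under them. Genes of like abundance lay on the same side: the 1638 genes with a mean of at least 50 FPKM had a median of -0.24, and 81.9% of them were lower with oxamate on the deposited scale, beside 84.2% of the members.

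The rest of the respiratory chain was set beside the members. For the 19 complex I assembly factors the median log2 change in HepG2/metR was -0.13, which turned to 0.01 with upper-quartile scaling, and 3 of them were at least 2-fold lower, a smaller share than the 17.6% of all genes kept. These were NUBPL, which delivers iron-sulfur clusters to complex I, at 22.5, 5.61 and 5.74 FPKM (log2 change -1.83), NDUFAF5, which modifies NDUFS7, at 13.3, 5.07 and 4.84 FPKM (-1.24), and TMEM261, which acts on the distal membrane arm, at 24.5, 11.4 and 11.4 FPKM (-1.04). NDUFAF2, which holds the place later taken by NDUFA12, was at 92.8, 126 and 98.2 FPKM. With oxamate NDUFAF3 alone among the assembly factors passed 1.5-fold (3.82% of all genes kept were as much lower), at 21.2, 18.0 and 10.2 FPKM (log2 change -0.76).

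The median log2 changes in HepG2/metR of the other complexes were -0.05 over 4 genes of complex II, -0.40 over 9 of complex III, 0.20 over 10 of complex IV and 0.15 over 15 of complex V, and the value of complex II turned to 0.09 with upper-quartile scaling. In complex III, 4 of 9 were at least 1.5-fold lower and 0 higher, beside 27.0% and 26.7% of all genes kept, and UQCRC2, a core subunit, was at 213, 70.7 and 70.3 FPKM (log2 change -1.58). In complex IV, COX5B was at 642, 240.2 and 269 FPKM (-1.41). In complex V, ATP5G2, which encodes a copy of the c subunit of the rotor, was at 147, 358 and 282 FPKM (1.27). Of the 15 genes of complex V, 2 were at least 1.5-fold lower with oxamate on the deposited scale (3.82% of all genes kept). These were ATP5G1, with a log2 change of -0.73, and ATP5I, with -0.64. With oxamate the medians of complexes II to V were -0.22, -0.31, -0.28 and -0.32, lower than or close to that of complex I, and they remained below 0 under every scaling tried, between -0.15 and -0.03 with scaling to either total. Sets outside the chain gave like values with oxamate, -0.20 over 77 mitochondrial ribosomal proteins and -0.29 over 12 reference genes of general use. In HepG2/metR those sets had medians of -0.20 and 0.21.

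Of 13 regulators of respiratory gene expression, 12 were kept, with a median log2 change in HepG2/metR of -0.23. That median was -0.12 without the filter on low values, which brings in PPARGC1B, and -0.088 with upper-quartile scaling. PPARGC1A, the coactivator that drives mitochondrial biogenesis, was listed at 3.77, 0 and 0.0161 FPKM. TFB1M, which methylates mitochondrial ribosomal RNA, was at 26.8, 6.0 and 5.08 FPKM (-1.99) and POLRMT, the mitochondrial RNA polymerase, at 23.0, 9.38 and 9.70 FPKM (-1.21). Of the 4 factors whose motif letters were searched, 2 passed 1.5-fold, in opposite directions. ESRRA was lower at 19.7, 10.9 and 12.97 FPKM (-0.81) and GABPA was higher at 6.24, 10.2 and 9.13 FPKM (0.63). NRF1, at 4.56, 5.33 and 3.93 FPKM, and YY1, at 27.2, 21.3 and 23.1 FPKM, stayed within 1.5-fold. In all, 5 of the 12 were at least 1.5-fold lower, LRPPRC, which stabilizes mitochondrial messenger RNA, being the last of them at -0.60, and 1 was higher, beside 27.0% and 26.7% of all genes kept. PPARGC1A is 1 of these 5, and it passed the filter on the mean level only through its parental value. PPARGC1B, at 0.588, 0.705 and 0.817 FPKM, did not pass that filter, so the count rests in part on the filter. With oxamate 0 of the 12 passed 1.5-fold in either direction.

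Because NDUFAB1 also serves other pathways, 12 genes of mitochondrial fatty acid synthesis, lipoic acid synthesis and iron-sulfur cluster assembly were listed after its values had been seen. Among the 11 with enough signal, 2 stood at least 1.5-fold lower in HepG2/metR and 0 higher, with a median of -0.36, a smaller share lower than the 27.0% of all genes kept. NFS1, the cysteine desulfurase of the iron-sulfur cluster machinery, was at 26.6, 16.1 and 16.7 FPKM (log2 change -0.69), and HSD17B8, part of a mitochondrial ketoacyl reductase, at 6.07, 3.28 and 1.55 FPKM (-0.72). With oxamate 2 of the 11 were at least 1.5-fold lower (3.82% of all genes kept), HSD17B8 at -0.75 and LIAS, the lipoic acid synthase, at -0.61.

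The members lie on 18 chromosomes, and where a member stood in HepG2/metR was set beside its neighbours, the 5 nearest genes kept on each side in the RefSeq order. This and the runs below were examined after the values of NDUFAB1 had been seen. NDUFAB1 lies on chromosome 16, and all 10 of its neighbours were lower in HepG2/metR, 9 of them at least 1.5-fold, with a median log2 change of -1.32. It belonged to a run of 18 neighbouring genes that were each at least 1.5-fold lower. Of 1827 such runs over all genes kept, 2 were of 18 genes or longer, and the longest had 26. C16orf52, between UQCRC2 and NDUFAB1 in the run, had a log2 change of -0.5855, where 1.5-fold is 0.585 on that scale. The length of the run thus rests on a gene at the threshold, and it was not examined under other scalings. Within the run were GGA2, a Golgi sorting adaptor, at 26.3, 3.17 and 2.88 FPKM, EARS2, the mitochondrial glutamyl-tRNA synthetase, at 21.8, 5.68 and 5.17 FPKM, DCTN5, a dynactin subunit, at 38.1, 8.45 and 8.34 FPKM, and UQCRC2 of complex III with the values above. Over the 536 placed genes of chromosome 16 the median log2 change was -0.65, the lowest after the 6 genes of chromosome Y, and 53.5% were at least 1.5-fold lower. With oxamate the run showed no common direction, with changes from -0.68 to 0.62.

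NDUFB10 is the other member on chromosome 16, and its neighbours had a median log2 change of -0.76 beside its own -0.90. NDUFS7 on chromosome 19, with neighbours at -0.79, also had the sign of its neighbours' median, as did the 3 members that were at least 1.5-fold higher. The neighbours of NDUFA3 had a median of 0.97, 8 of 10 being at least 1.5-fold higher. Those of NDUFA12 had 0.97, with 6 of 10 as much higher. The neighbours of NDUFS4 were mixed, with 4 of 10 at least 1.5-fold higher and 3 at least 1.5-fold lower. Their median was 0.39 beside its own 0.83. Of the 9 members at least 1.5-fold lower, 4 had neighbours with a median below 0 and 5 had neighbours with a median above 0. The latter were NDUFS1 (neighbours at 0.68), NDUFV2 (0.37), NDUFC1 (0.26), NDUFS3 (0.13) and NDUFC2 (0.04). Across the 38 members, Pearson's r between own change and neighbours' median was 0.630, and 0.494 over 37 genes without NDUFAB1, against 0.260 over 11484 genes kept with a place in the order. Spearman's rho was 0.414 over the members, 0.365 over the 37 without NDUFAB1 and 0.335 over all genes. With oxamate r was 0.067 over the members and 0.081 over all genes. The points share libraries and some share neighbours, so these values are descriptions.

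Each member was also read relative to its neighbours. The change of 10 members lay at least 1.5-fold below the median of their neighbours, where 25.6% of all genes did, and that of 0 members lay at least 1.5-fold above it, where 24.8% of all genes did. NDUFAB1 remained the lowest at -1.69 on the log2 scale, followed by NDUFS1 at -1.49, NDUFV2 at -1.44, NDUFC2 at -1.04 and NDUFC1 at -1.01. The highest were NDUFV3 at 0.51 and NDUFS8 at 0.46. Over the 38 members the median of this difference was -0.14, against -0.002 over all genes. Copy number was not measured, and its part in these differences was not tested.

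**Figure D2:**
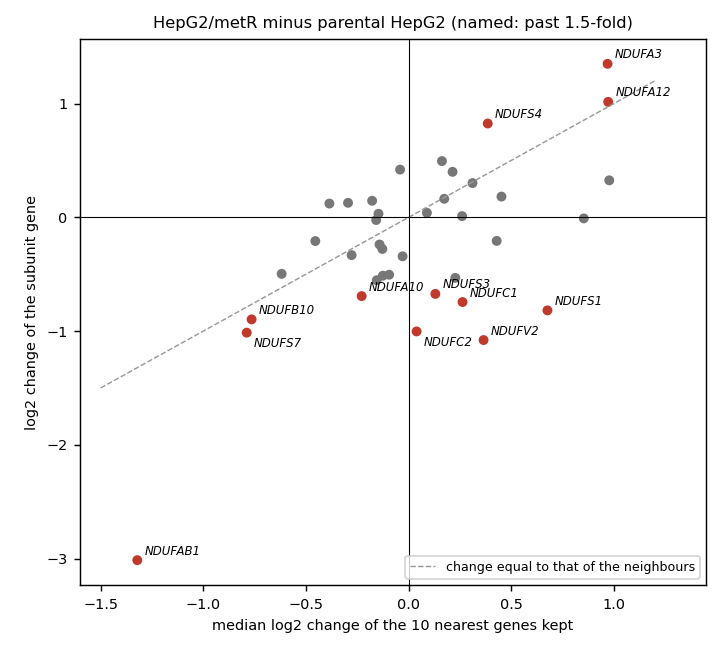
Log2 change of each of the 38 members between HepG2/metR and parental HepG2 against the median log2 change of its 10 nearest genes kept, with members past 1.5-fold in red and named and a dashed line where a member changed as its neighbours did. NDUFAB1, NDUFS7, NDUFB10, NDUFA10, NDUFA3, NDUFA12 and NDUFS4 share the sign of their neighbours' median. NDUFS1, NDUFV2, NDUFC1, NDUFS3 and NDUFC2 lie below 0 where that median is above 0.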

How the data were processed

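The data are 3 RNA-seq libraries, 1 each from parental HepG2 cells, the metformin-selected HepG2/metR line and that line after oxamate. The authors deposited 1 value per gene symbol and library on a log2 scale. These have the form of log2(FPKM + 1), a unit inferred from the values, since 2 to the power of the value, minus 1, had at most 6 significant digits for 100% of values above 1 FPKM. Per the submitters' processing notes, STAR 2.5.1b, FastQC 0.11.5, Cufflinks 2.2.1 and build hg19 were used. The annotation, filters, strand setting and treatment of reads shared with pseudogenes, which several of these genes have, are not given in the sources used here. The antisense genes NDUFA6-AS1 and NDUFB2-AS1 did not exceed 0.51 FPKM. The depth in reads is unknown.

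Changes are differences of the deposited values, with the pseudocount of 1 they include, which understates changes of low genes. Genes with a mean of at least 1 FPKM were kept. Folds of 2 and 1.5 were used for HepG2/metR against parental cells and 1.5 for oxamate, read against the share of all genes kept. Without replicates no test was run, and standard deviations and intervals could not be given. The members and lists were chosen with earlier results of these data known, and the sets said in the text to follow the values were chosen after they were seen. Named were core subunits, NDUFA4, members past 1.5-fold, the 5 largest changes each way, the 3 highest and lowest by level and, from other lists, up to 4 genes past the folds, while further genes are named to complete a group. Symbols were matched exactly or by older symbol, and 28 date-like symbols were not used by name. The values of 1 member and of 1 gene of a pathway of NDUFAB1 are not reported here.

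Transcript lengths came from GENCODE release 29. Gene order and promoters came from RefSeq tables of GRCh38.p14, which is not the build of the files, so no other coordinates are given. Motif letters were searched exactly on both strands. Alternatives tried were pseudocounts of 0.1 and 0, filters at a mean of 0 and 5 FPKM, median-of-ratios, upper-quartile and total scaling with or without small RNAs, and the members without NDUFA4, and after seeing the data without NDUFAB1 or with NDUFC2 summed with its read-through gene. The counting of folds was tested on simulated libraries. Calculations ran in Python 3.11 with pandas 2.3.3, numpy 2.4.6 and scipy 1.17.1, and figures were drawn with matplotlib 3.10.9.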

Additional observations from a re-analysis of the deposited data

How the results depend on the processing

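Of 110 summary values under 11 alternatives, 99 kept their direction and stayed near the value reported. Near meant within 0.1 for a median and within a ratio of 1.5 for a count. Many of the 99 could not have moved. Every member had a mean of at least 10.2 FPKM, so the filters could not alter member counts or medians. Leaving out NDUFA4, which passed no fold, could not alter a count. The values that shifted all did so under a scaling or a pseudocount. With upper-quartile scaling 1 member (NDUFAB1) passed 2-fold lower in HepG2/metR in place of 4, and with scaling to the same FPKM total, with or without small RNAs, 2 were (NDUFAB1 and NDUFV2), because NDUFS7 and NDUFC2 lie at the threshold. The members' median log2 change in HepG2/metR was -0.060 with upper-quartile scaling in place of -0.21. With oxamate it was -0.018 with scaling to the same total and 0.0009, a reversed sign, with the total without small RNAs, in place of -0.19. Members at least 1.5-fold lower with oxamate numbered 2 (NDUFA7 and NDUFA6) with a pseudocount of 0.1, with none or with upper-quartile scaling, and 0 with either total, in place of 1. Less the median of all genes, the members' median ranged from -0.23 to -0.21 in HepG2/metR and from -0.23 to -0.18 with oxamate under these alternatives. Among 406 values of single genes, lists and all genes kept, 337 stayed the same and 65 moved, these being list medians or all-gene values. Some list medians changed sign, such as that of the assembly factors with oxamate, from -0.055 to 0.094 and 0.11 with either total. Of the single-gene values called, 0 changed sign and 4 no longer passed the fold. Those were NDUFA10 and NDUFS3 in HepG2/metR with upper-quartile scaling and NDUFA7 with either total. NDUFB4 newly passed 1.5-fold higher in HepG2/metR with upper-quartile scaling, where 4 members in place of 3 were higher. No paired analysis was possible because each condition has 1 library, and leaving out a library leaves no comparison. The files give no read counts, so the counting error of low members such as NDUFA5 is unknown, and without replicates no value can be set against library-to-library spread.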
